A study of Mus musculus with 24 samples.

Results

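The values below follow 8 genes of cell death control, called members here: the caspases Casp1, Casp4 and Casp8, the caspase-like inhibitor Cflar, the inhibitors of apoptosis Birc2 and Birc3, the BH3-only protein gene Bcl2l11 and the inflammasome adaptor gene Pycard. The members were taken as every probe whose gene name on the array equals 1 of these symbols, which gave 17 of 41174 probes and 8 of 21597 gene symbols. Casp1, Casp4, Casp8 and Birc2 had 1 probe each, Birc3 and Pycard 2, Bcl2l11 3 and Cflar 6. All 17 probes passed the filter on dim signal.

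RNA of C57BL/6 mouse cells was measured on 12 Agilent 2-colour arrays, with or without Kdo2 lipid A (KLA), a lipid A that acts through TLR4. Elicited peritoneal macrophages (EPM), washed out of the peritoneum 3 days after thioglycollate injection and kept as the adherent cells, were untreated, given KLA for 1 h, given the solvent DMSO for 12 h or given KLA for 12 h. Bone marrow-derived macrophages (BMDM) had the same arms, except that their early control was DMSO for 1 h. Splenic B cells, left after depletion of CD43 and CD11b positive cells, had an untreated control, KLA for 1 h, DMSO for 12 h and KLA for 12 h. Each condition was 1 array that carried 2 biological replicates, the first in Cy5 and the second in Cy3, and the 4 arrays of a cell type shared 1 slide. The spread between replicates therefore leaves out differences between arrays, and cell types cannot be told apart from slides. RNA was amplified and labelled before hybridization.

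Caspases are cysteine proteases that are made as inactive precursors. Casp1 and Casp4 encode the inflammatory caspases of the inflammasome, where Pycard links sensors to Casp1, and both can lead to a lytic death of the macrophage. Casp8 starts apoptosis below death receptors and Cflar, a caspase homologue without activity, competes with it. Birc2 and Birc3 are ubiquitin ligases of TNF receptor signalling, and Bcl2l11 encodes Bim, which neutralizes the survival proteins of the BCL-2 family. TLR4 is known to switch on both death and survival genes in macrophages.

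The cells carried the markers of their labels, though several markers were not restricted to their cell type. All 10 macrophage markers tested were well above background in every EPM and BMDM array, and all 9 B cell markers in every B cell array. In the B cell arrays 5 to 6 of the 10 macrophage markers were also well above background in both channels, and Msr1, Mrc1, Fcgr1 and Itgam in none. In the macrophage arrays 5 to 7 of the 9 B cell markers were, among them Blnk (15.97 in untreated EPM and 16.07 in untreated B cells), Cd22 (10.80 and 12.47) and Cd79b (11.69 in the early BMDM control and 17.07 in untreated B cells). Cr2 and Fcer2a were at background in all macrophage arrays, and Pax5 in all but that of EPM with KLA for 12 h, at 6.36. Between 57.4% and 65% of probes were well above background per channel, and no spot was saturated. The member genes were well above background in 24 of 24 channels by the probe used for each gene, the one with the highest mean. Of the 24 columns of the authors' own normalized table, 20 lay closest to the scanner channel of their own label, and the other 4 did not: the columns of B cells with KLA for 1 h and with DMSO for 12 h were exchanged against the scanner files. The scanner labels were kept, and the results of the members that rest on these arrays are also given with both labels exchanged.

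Levels are normalized log2 intensities, changes are differences of log2 levels between KLA and its control, and a change was called where limma's adjusted p over all genes tested was under 0.05. The control was untreated cells for KLA at 1 h in EPM and B cells, DMSO for 1 h in BMDM, and DMSO for 12 h at 12 h. At 1 h in EPM and B cells, KLA and its solvent therefore cannot be told apart. In macrophages the 12 h response held most of the members. In EPM, 4 of 8 members were called at 1 h, all higher with KLA (Casp4, Cflar, Birc3 and Bcl2l11), where 29.1% of all genes tested were called, 9.39% higher and 19.7% lower. At 12 h all 8 were called in EPM, 6 higher and 2 lower (Bcl2l11 and Pycard), where 53.9% of all genes were called, 19.6% higher and 34.3% lower. In BMDM, 6 were called at 1 h, 5 higher and Casp1 lower, beside 28.6% of all genes, 11% higher and 17.6% lower. At 12 h, 7 were called, 6 higher and Bcl2l11 lower, beside 65% of all genes, 28.6% higher and 36.3% lower. In B cells 1 member was called at 1 h and 1 at 12 h, Birc3 both times. Of all genes, 5.17% were called at 1 h (2.72% higher and 2.45% lower) and 5.29% at 12 h (2.81% higher and 2.48% lower). The median change of the members was 0.66 at 1 h and 1.38 at 12 h in EPM, against -0.05 and -0.06 over all genes. In BMDM the median was 0.47 at 1 h and 1.48 at 12 h, against -0.03 and -0.02 over all genes. In B cells it was -0.08 at 1 h and 0.08 at 12 h.

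When the 2 channels of an array were averaged and the 2 control arrays of a cell type stood as replicates of 1 pooled control, which changes both the samples and the control, fewer 1 h calls were left. In EPM at 1 h, 2 of the 4 were left (Casp4, adjusted p = 0.046, and Cflar, adjusted p = 0.0205, limma), and in BMDM at 1 h none was left of 6 (Cflar had the lowest adjusted p, 0.0769). At 12 h, 6 members were left in EPM and 6 in BMDM. The share of all genes called in this fit was not counted.

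**Figure D1:**
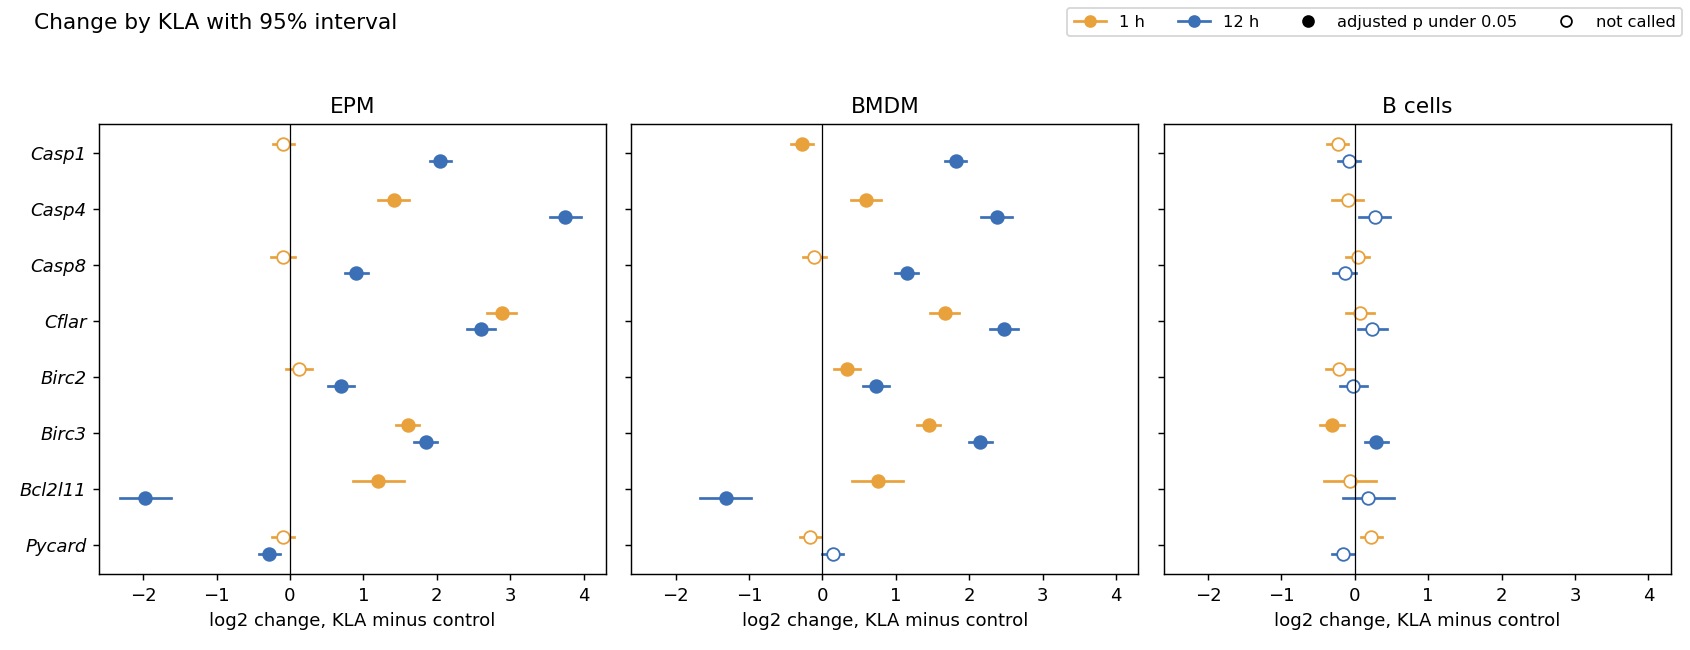
Change by KLA of the 8 member genes in EPM, BMDM and B cells, on the x axis as log2 level with KLA minus log2 level of the control (untreated at 1 h in EPM and B cells, DMSO otherwise). Points are limma estimates from 2 replicates per condition, bars are 95% intervals, filled points passed an adjusted p of 0.05. Bcl2l11 lies at 1.20 at 1 h and at -1.97 at 12 h in EPM, and every B cell point, under the scanner labels, lies between -0.31 and 0.29.

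Casp1, the protease that matures IL-1β and IL-18, was raised at 12 h and not at 1 h. In EPM its level was 12.87 and 12.93 untreated and 12.80 and 12.82 after KLA for 1 h, and then 12.88 and 12.95 with DMSO and 14.89 and 15.03 with KLA at 12 h. The 12 h channels with KLA stood clear above all others, and those of 1 h lay just below their control. The 12 h change was 4.13-fold (log2 2.05, SE 0.07, adjusted p = 1.15e-14), and the 1 h change was -0.09 (adjusted p = 0.361). In BMDM the level was 13.81 and 13.83 in the 1 h control, 13.51 and 13.57 with KLA for 1 h, 13.61 and 13.73 with DMSO for 12 h and 15.45 and 15.53 with KLA for 12 h. The BMDM rise at 12 h was 3.52-fold (log2 1.82, adjusted p = 5.05e-14), and at 1 h Casp1 fell by 0.28 (adjusted p = 0.00485). That 1 h fall was not called without quantile normalization between arrays (-0.14, adjusted p = 0.137) or in the authors' values (-0.12, adjusted p = 0.286). The change at 12 h was larger than that at 1 h by 2.14 in EPM and by 2.10 in BMDM (adjusted p = 2.51e-12 and 2.82e-12, limma, difference of the responses).

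Casp4, which senses lipopolysaccharide inside the cell and cuts gasdermin D, had the largest 12 h change of the members in EPM and was already raised at 1 h. In EPM it read 11.69 and 11.90 untreated, 13.16 and 13.25 after KLA for 1 h, 11.32 and 11.52 with DMSO for 12 h and 15.11 and 15.23 with KLA for 12 h. No channel with KLA overlapped a control channel. The change was 2.66-fold at 1 h (log2 1.41, SE 0.10, adjusted p = 3.29e-09) and 13.5-fold at 12 h (log2 3.75, adjusted p = 3.53e-16). The BMDM channels read 12.83 and 12.97 in the 1 h control, 13.40 and 13.59 with KLA for 1 h, 12.87 and 13.05 with DMSO for 12 h and 15.26 and 15.41 with KLA for 12 h. The BMDM change was smaller, 1.51-fold at 1 h (adjusted p = 0.000179) and 5.19-fold at 12 h (adjusted p = 2.4e-13), from a control level that was above that of EPM. With KLA at 12 h the channels of EPM and BMDM lay close together, between 15.11 and 15.41.

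Casp1 and Casp4 are direct neighbours on chromosome 9, with 0 annotated genes between them in RefSeq. Their probes lie at chr9:5306226-5306728 and chr9:5336645-5336704 on mm8. Of the 11 RefSeq promoter windows of the 8 members (250 bases before to 50 after a transcript start, GRCm38.p6), only the 2 overlapping windows of Casp4 held the letters of the NF-kappaB consensus, which 4.51% of all 32851 windows hold. The window at chr9:5308599-5308898 (plus strand) is printed because Casp4 and its neighbour Casp1 differ in it. The capitals mark 2 overlapping matches, together at -93 to -83 from the start, 1 of which matches on both strands.
Casp4 promoter: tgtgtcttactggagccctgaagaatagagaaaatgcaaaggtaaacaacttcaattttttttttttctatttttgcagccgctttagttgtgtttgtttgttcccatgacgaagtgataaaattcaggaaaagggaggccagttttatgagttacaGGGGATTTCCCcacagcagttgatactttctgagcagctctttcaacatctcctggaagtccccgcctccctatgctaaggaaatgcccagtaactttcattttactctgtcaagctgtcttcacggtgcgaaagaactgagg
The Casp1 window at chr9:5298267-5298566 (plus strand) held none of the 4 motifs searched on both strands, which besides NF-kappaB were the interferon response core GAAA followed by any 2 bases and GAAA, the AP-1 site TGANTCA and TATAAA.
Casp1 promoter: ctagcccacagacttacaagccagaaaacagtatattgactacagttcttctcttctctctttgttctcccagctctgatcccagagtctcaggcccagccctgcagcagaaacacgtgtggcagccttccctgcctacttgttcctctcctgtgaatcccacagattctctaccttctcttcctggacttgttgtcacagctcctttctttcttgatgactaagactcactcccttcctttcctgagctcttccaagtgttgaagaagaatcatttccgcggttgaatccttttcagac
A match of letters is a description of the window and no evidence of binding.

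Pycard, the adaptor that joins inflammasome sensors to Casp1, had the smallest 12 h change of the members in both macrophages. In EPM it read 13.34 and 13.38 with DMSO for 12 h and 13.12 and 13.05 with KLA for 12 h, and the channels did not overlap. The fall was 0.28 (SE 0.07, adjusted p = 0.0022), and the second Pycard probe, which shares most of its position on chromosome 7 with the first, fell by 0.51 (adjusted p = 0.00226 in the fit over all probes). The first Pycard value was 0.03 and not called (adjusted p = 0.73) without quantile normalization between arrays, and -0.08 (adjusted p = 0.422) in the authors' values, so its direction in EPM depends on the scaling. In BMDM the change was -0.17 at 1 h and 0.14 at 12 h (adjusted p = 0.0856 and 0.0836). The 12 h change in BMDM was called without quantile normalization (0.31, adjusted p = 0.000575), in the authors' values (0.51, adjusted p = 7.23e-06) and with the mean of both probes (0.22, adjusted p = 0.00526). With the dye as a replicate block both changes in BMDM were called (adjusted p = 0.0284 and 0.0362), and with the mean of both probes those at 1 h in EPM and BMDM were (-0.22 and -0.21, adjusted p = 0.0129 and 0.0158).

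Casp8, the apical protease of death receptor signalling, followed the late pattern of Casp1 at a smaller size. In EPM it read 11.41 and 11.36 untreated, 11.28 and 11.30 after KLA for 1 h, 11.31 and 11.17 with DMSO for 12 h and 12.09 and 12.19 with KLA for 12 h. Its BMDM levels were 11.95 and 11.86 in the 1 h control, 11.88 and 11.71 with KLA for 1 h, 11.98 and 11.95 with DMSO for 12 h and 13.19 and 13.03 with KLA for 12 h. In both macrophages the 12 h KLA channels lay above every other channel of that cell type. The 12 h change was 1.87-fold in EPM (adjusted p = 7.23e-09) and 2.21-fold in BMDM (adjusted p = 1.5e-10). At 1 h it was -0.10 (adjusted p = 0.392) and -0.11 (adjusted p = 0.329).

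Cflar, whose product c-FLIP binds the adaptor of death receptors in place of Casp8, was the member with the largest change at 1 h in both macrophages. In EPM it read 11.71 and 11.96 untreated and 14.70 and 14.73 after KLA for 1 h, and 11.98 and 12.15 with DMSO against 14.58 and 14.75 with KLA at 12 h. In BMDM the levels were 12.41 and 12.54 in the 1 h control, 14.13 and 14.15 with KLA for 1 h, 12.32 and 12.45 with DMSO for 12 h and 14.85 and 14.87 with KLA for 12 h. All KLA channels lay far above all control channels of the same cell type. The change was 7.37-fold at 1 h and 6.06-fold at 12 h in EPM (adjusted p = 2.12e-14 and 2.31e-14), and 3.17-fold and 5.55-fold in BMDM (adjusted p = 8e-11 and 3.62e-14). In BMDM the response grew by 0.81 from 1 h to 12 h (adjusted p = 3.32e-05). In EPM it differed by -0.28 (adjusted p = 0.0885), which was called with the dye as a replicate block (adjusted p = 0.00774).

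The 6 Cflar probes lie between 58661885 and 58703353 on chromosome 1 (mm8, plus strand), just upstream of the Casp8 probe at chr1:58789303-58789362. RefSeq has 0 protein-coding genes and 1 other gene between Cflar and Casp8. Of the 6 probes, 5 rose by 2.52 to 3.01 in EPM at 1 h, while the most upstream probe rose by 0.53 (adjusted p = 3.61e-06). The probes did not order the time points alike. In EPM the probe at chr1:58677110-58677169 rose by 2.93 at 1 h and 3.28 at 12 h, a growth of 0.34 (adjusted p = 0.0326), and the probe at chr1:58698818-58698877 by 3.01 and 2.76, a difference of -0.25 (adjusted p = 0.0728). Exons and UTRs of the probes are not assigned here, since the annotation at hand is on another build.

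The Cflar promoter window at chr1:58711241-58711540 (GRCm38.p6, plus strand) is printed because it alone among the 11 held the interferon response core and TATAAA, which 3.44% and 13.6% of all windows hold. The interferon response core lies at 7 to 16 after the start on the minus strand, and TATAAA at -132 to -127 overlaps its own match on the other strand. No member window held the AP-1 site, which 7.81% of all windows hold.
Cflar promoter: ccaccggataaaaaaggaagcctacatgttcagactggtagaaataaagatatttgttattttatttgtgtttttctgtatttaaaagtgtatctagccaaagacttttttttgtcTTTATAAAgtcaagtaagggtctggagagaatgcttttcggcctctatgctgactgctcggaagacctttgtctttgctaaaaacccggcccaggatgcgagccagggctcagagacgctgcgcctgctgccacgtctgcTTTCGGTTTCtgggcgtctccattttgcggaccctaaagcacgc
The GC content of the member windows ran from 41.7% (Casp4) to 74.0% (Bcl2l11), with a median of 52.7% over all windows. It was 43.0% for Birc3, 45.0% for Cflar, 48.0% for Casp1 and 42.0% for Casp8. Of the members raised at 1 h in both macrophages, Casp4 (41.7% and 42.0%), Cflar and Birc3 lay below that median. Bcl2l11 (71.0% and 74.0%) lay above it, as did Birc2 (60.0% and 67.0%), which was called at 1 h in BMDM alone.

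Birc3 and Birc2, both ubiquitin ligases that keep RIPK1 signalling on its survival arm, are neighbours on chromosome 9 with 0 annotated genes between them, and differed in size and timing. Birc3 read 10.01 and 10.05 in untreated EPM, 11.58 and 11.69 after KLA for 1 h, 9.75 and 9.89 with DMSO for 12 h and 11.65 and 11.69 with KLA for 12 h. In BMDM it read 10.68 and 10.81 in the 1 h control, 12.12 and 12.26 with KLA for 1 h, 10.44 and 10.57 with DMSO for 12 h and 12.67 and 12.63 with KLA for 12 h. The KLA channels stood above the control channels at both times in both macrophages. The change was 3.04-fold at 1 h and 3.60-fold at 12 h in EPM (adjusted p = 8.13e-12 and 2e-13) and 2.73-fold and 4.45-fold in BMDM (adjusted p = 3.6e-11 and 1.59e-14). The second Birc3 probe, at chr9:7856683-7856742 against chr9:7849394-7849453 for the first (mm8, minus strand), rose less, by 0.66 and 0.50 in EPM and by 1.12 and 0.89 in BMDM at 1 h and 12 h. This probe was dim in the early and 12 h controls, at 6.41 and 6.27 in EPM and 6.64 and 6.81 in BMDM. The lowest levels well above background were 5.44 to 6.16 per channel. With DMSO for 12 h in EPM only 1 of its 2 channels was well above background.

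Birc2 was dimmer and moved less. In EPM it read 8.92 and 8.90 untreated and 9.09 and 8.98 after KLA for 1 h, and 8.97 and 9.01 with DMSO against 9.74 and 9.64 with KLA at 12 h. The BMDM channels read 8.76 and 8.65 in the 1 h control, 9.07 and 9.02 with KLA for 1 h, 8.92 and 8.71 with DMSO for 12 h and 9.43 and 9.65 with KLA for 12 h. The change at 12 h was 1.62-fold in EPM (adjusted p = 1.15e-06) and 1.66-fold in BMDM (adjusted p = 4.6e-07), clear of the controls in both. Without quantile normalization the log2 change in BMDM was 0.38 in place of 0.73 and still called (adjusted p = 0.000569). At 1 h it was 0.12 in EPM (adjusted p = 0.341) and 0.34 in BMDM (adjusted p = 0.00536). The BMDM call at 1 h was lost without the second replicate of its control (0.29, adjusted p = 0.0598).

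Bcl2l11, which encodes the pro-apoptotic Bim, was the only member raised at 1 h and lowered at 12 h, and the lowering depended on the probe. By its brightest probe it read 11.69 and 11.39 in untreated EPM, 12.83 and 12.66 after KLA for 1 h, 10.996 and 10.91 with DMSO for 12 h and 9.06 and 8.90 with KLA for 12 h. Its BMDM levels were 12.46 and 12.19 in the 1 h control, 13.20 and 12.95 with KLA for 1 h, 12.20 and 11.88 with DMSO for 12 h and 10.80 and 10.65 with KLA for 12 h. Channels of KLA and control did not overlap at either time. The change was 2.30-fold at 1 h in EPM (adjusted p = 1.91e-05) and 1.68-fold in BMDM (adjusted p = 0.00209), and at 12 h Bcl2l11 was 3.92-fold lower in EPM (log2 -1.97, adjusted p = 8.64e-09) and 2.49-fold lower in BMDM (log2 -1.31, adjusted p = 1.26e-06). The response turned by -3.18 between 1 h and 12 h in EPM and by -2.07 in BMDM (adjusted p = 2.62e-09 and 5.57e-07).

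The other 2 Bcl2l11 probes rose at 1 h as well. The brightest probe lies farthest downstream, at chr2:127853756-127853815 (mm8, plus strand). The middle probe, designed on the same transcript record, has coordinates chr2:127838598-127849693 that span 11096 bases, so that it crosses an intron. It read 7.82 and 7.66 in untreated EPM, 9.96 and 9.91 after KLA for 1 h, 7.65 and 7.63 with DMSO for 12 h and 7.92 and 7.84 with KLA for 12 h. In BMDM the levels were 7.85 and 7.85 in the 1 h control, 9.35 and 9.26 with KLA for 1 h, 7.78 and 7.70 with DMSO for 12 h and 8.87 and 8.80 with KLA for 12 h. By this probe the 12 h channels with KLA lay above their control in both macrophages. The change was 2.19 and 1.46 at 1 h, and 0.24 (adjusted p = 0.00639) and 1.10 (adjusted p = 6.84e-11) at 12 h. The upstream probe, at chr2:127820441-127821122, rose by 0.68 and 0.40 at 1 h. At 12 h it was not well above background in either channel with DMSO in EPM or with KLA in BMDM, so it could not show a fall in EPM and gives only a bound in BMDM. With the mean of the 3 probes, the change at 12 h was -0.54 in EPM (adjusted p = 1.73e-06) and -0.11 in BMDM (adjusted p = 0.147). At 12 h the 2 probes that were well above background in all macrophage arrays thus changed in opposite directions.

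**Figure D2:**
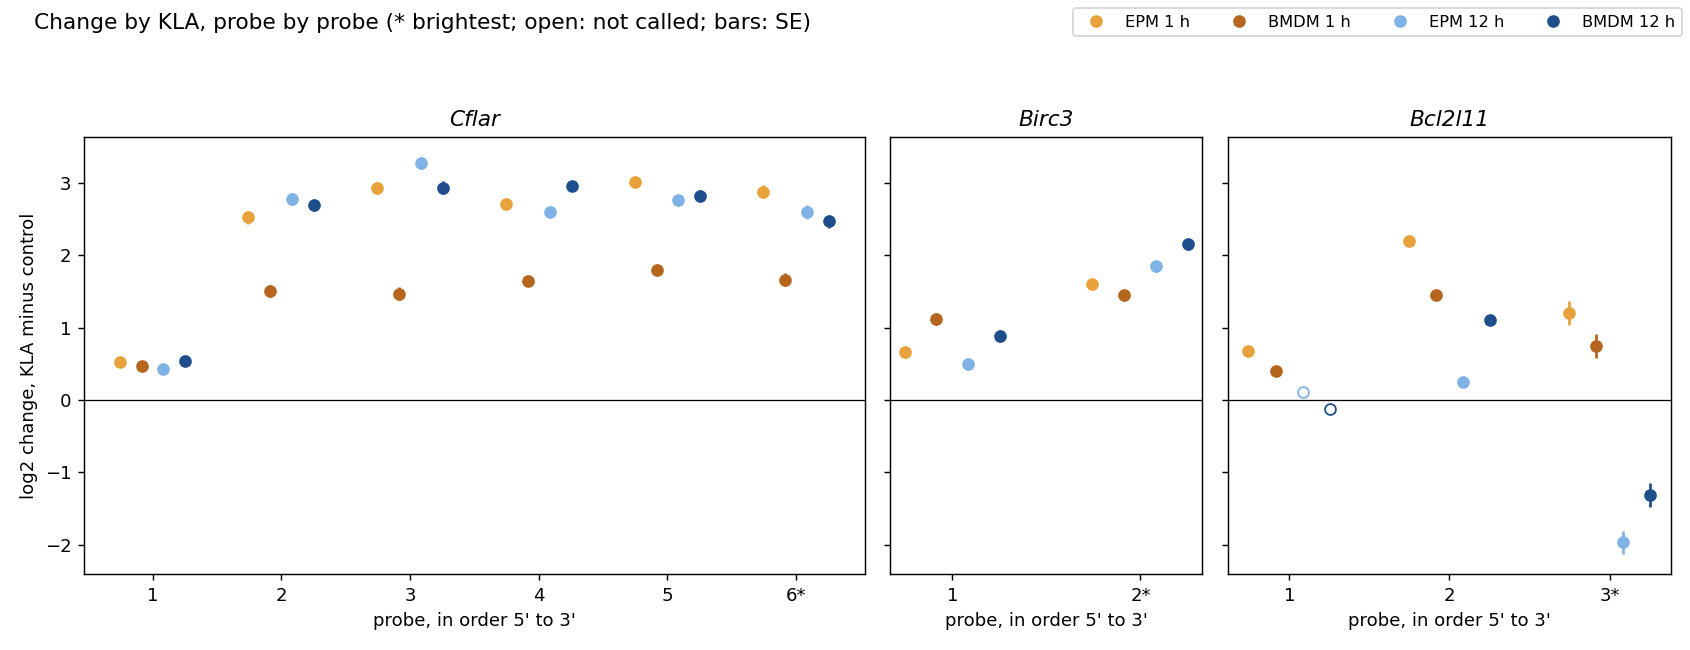
Change by KLA of every probe of Cflar, Birc3 and Bcl2l11 in EPM and BMDM at 1 h and 12 h (y axis, log2 level with KLA minus control; bars are standard errors of the limma estimate; open points were not called). Probes are numbered along the gene and an asterisk marks the brightest, which stands for the gene elsewhere. For Bcl2l11 the 12 h points run from 1.10 on the second probe in BMDM to -1.97 on the third in EPM, while the 1 h points are above 0 on all 3.

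The response to KLA was compared between EPM and BMDM as a difference of changes. At 1 h the control was untreated cells in EPM and DMSO for 1 h in BMDM. Solvent and cell type therefore cannot be told apart in the 1 h difference. At 1 h, 2 members responded more in EPM, where 9.56% of all genes differed (4.07% higher and 5.49% lower): Cflar by 1.22 (95% interval 0.95 to 1.49, adjusted p = 2.68e-06) and Casp4 by 0.82 (0.52 to 1.12, adjusted p = 0.000661). For Birc3 the difference was 0.16 (-0.07 to 0.38, adjusted p = 0.446), and for Bcl2l11 it was 0.45 (-0.04 to 0.95, adjusted p = 0.285, or 0.00123 with the dye as a replicate block). At 12 h, 4 members differed beside 47.8% of all genes (23.2% higher and 24.6% lower). Casp4 responded more in EPM by 1.37 (1.08 to 1.67, adjusted p = 2.65e-07), and Bcl2l11 (-0.66, adjusted p = 0.0284), Pycard (-0.42, adjusted p = 0.00175) and Birc3 (-0.30, adjusted p = 0.0253) lay lower in EPM. The calls for Bcl2l11 and Birc3 were the least firm. Bcl2l11 was not called without the first DMSO or the second KLA channel of EPM, or without the second DMSO or the first KLA channel of BMDM at 12 h (adjusted p from 0.0765 to 0.131). Birc3 was not called without the second DMSO or the first KLA channel of EPM, or without the first DMSO or the first KLA channel of BMDM (adjusted p from 0.0702 to 0.115). Without quantile normalization neither was called (-0.39 and -0.06), and the difference of Birc2 turned from -0.03 to 0.41 (adjusted p = 0.00762). The differences of Casp1 (0.23, adjusted p = 0.0609) and Casp8 (-0.24, adjusted p = 0.0694) were called with the dye as a replicate block (adjusted p = 0.0103 and 0.0387). With array means and pooled controls none of these differences between EPM and BMDM was called, at either time.

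Basal levels differed between the cell types, in comparisons that lie between slides. The early control was untreated cells for EPM and B cells but DMSO for 1 h for BMDM. In early comparisons with BMDM, solvent cannot be told apart from cell type either. Against the early BMDM control, untreated EPM were lower in 7 members and higher in Birc2, beside 57.8% of all genes called, 28.5% higher and 29.3% lower. The differences were largest for Casp4 (-1.11, adjusted p = 1.98e-08), Casp1 (-0.92, adjusted p = 1.45e-09), Bcl2l11 (-0.78, adjusted p = 0.000513) and Birc3 (-0.72, adjusted p = 1.6e-07), and Birc2 was higher by 0.21 (adjusted p = 0.0449). With the mean of all probes of a gene, Bcl2l11 was at -0.36 and Birc3 at -0.47. The middle Bcl2l11 probe read 7.74 in untreated EPM and 7.85 in the early BMDM control. The Birc2 call was lost with an offset of 16, with no filter, without quantile normalization, and without either EPM channel or the second BMDM channel. Between the 12 h controls, 7 members were again lower in EPM, beside 56.9% of all genes (27.2% higher and 29.8% lower), from -0.32 for Cflar to -1.54 for Casp4 (the Cflar call was lost without the first EPM or the second BMDM channel), and Birc2 differed by 0.18 (adjusted p = 0.0847, or 0.0377 with the dye as a replicate block). With array means and pooled controls 2 calls were left, Casp4 and Casp8. Neutrophil markers, of which 5 of 5 were well above background in the early BMDM control and 2 of 5 in untreated EPM, summed to 1620 to 1711 on the linear scale in the first and 459 to 479 in the second, and their part in these differences was not tested.

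All members were measured in B cells too, most at other levels than in macrophages. Birc3 read 13.87 and 13.88 in untreated B cells, which was 14.4-fold above EPM (adjusted p = 5.76e-19) and 8.75-fold above BMDM (adjusted p = 1.52e-17). Birc2, at 10.71 and 10.54, was 3.28-fold and 3.78-fold above them, and Bcl2l11, at 13.38 and 13.03, 3.17-fold and 1.84-fold. Casp1 at 11.27 and 11.41 and Pycard at 10.55 and 10.62 lay below both macrophages, with B cell minus EPM and minus BMDM differences of -1.56 and -2.48 for Casp1 and of -2.88 and -3.29 for Pycard. For Casp8 they were -0.42 and -0.94. Casp4, at 12.55 and 12.68, lay between both macrophages, though its difference from BMDM (-0.28) was not called without the second BMDM or the first B cell channel or in the authors' values (-0.20, adjusted p = 0.0657), and was -0.73 without quantile normalization. Cflar differed from EPM by 0.19 (adjusted p = 0.0696, or 0.00693 with the dye as a replicate block). In all, 7 members differed from EPM, 4 higher and 3 lower in B cells, beside 77.2% of all genes (38.5% higher and 38.6% lower). From BMDM 8 differed, 3 higher and 5 lower, beside 76.6% (37.5% higher and 39.1% lower). A difference between these cell types was thus common to most genes. By the brightest probes B cells were highest in these controls for both Birc genes and for Bcl2l11, and BMDM for the other 5 members. The only neighbours in level that were not called different were B cells and EPM for Cflar. For Bcl2l11 the B cell differences were smaller with the mean of its probes, at log2 0.75 from EPM and 0.39 from BMDM. Its middle probe read 7.92 in untreated B cells, 7.74 in untreated EPM and 7.85 in the early BMDM control. By the Cflar probe at chr1:58677110-58677169 B cells lay below EPM, at -0.26 (adjusted p = 0.00989). The other dimmer Cflar probes did not share this size of difference. Those at chr1:58698818-58698877 and chr1:58698798-58698862 read 8.76 and 7.89 in untreated B cells and 8.48 and 7.57 in untreated EPM. Those at chr1:58675776-58676800 and chr1:58661885-58661944 read 6.99 and 7.06 in untreated B cells and 7.02 and 7.11 in untreated EPM. Fewer cells of a type and less RNA per cell cannot be told apart in such bulk RNA.

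**Figure D3:**
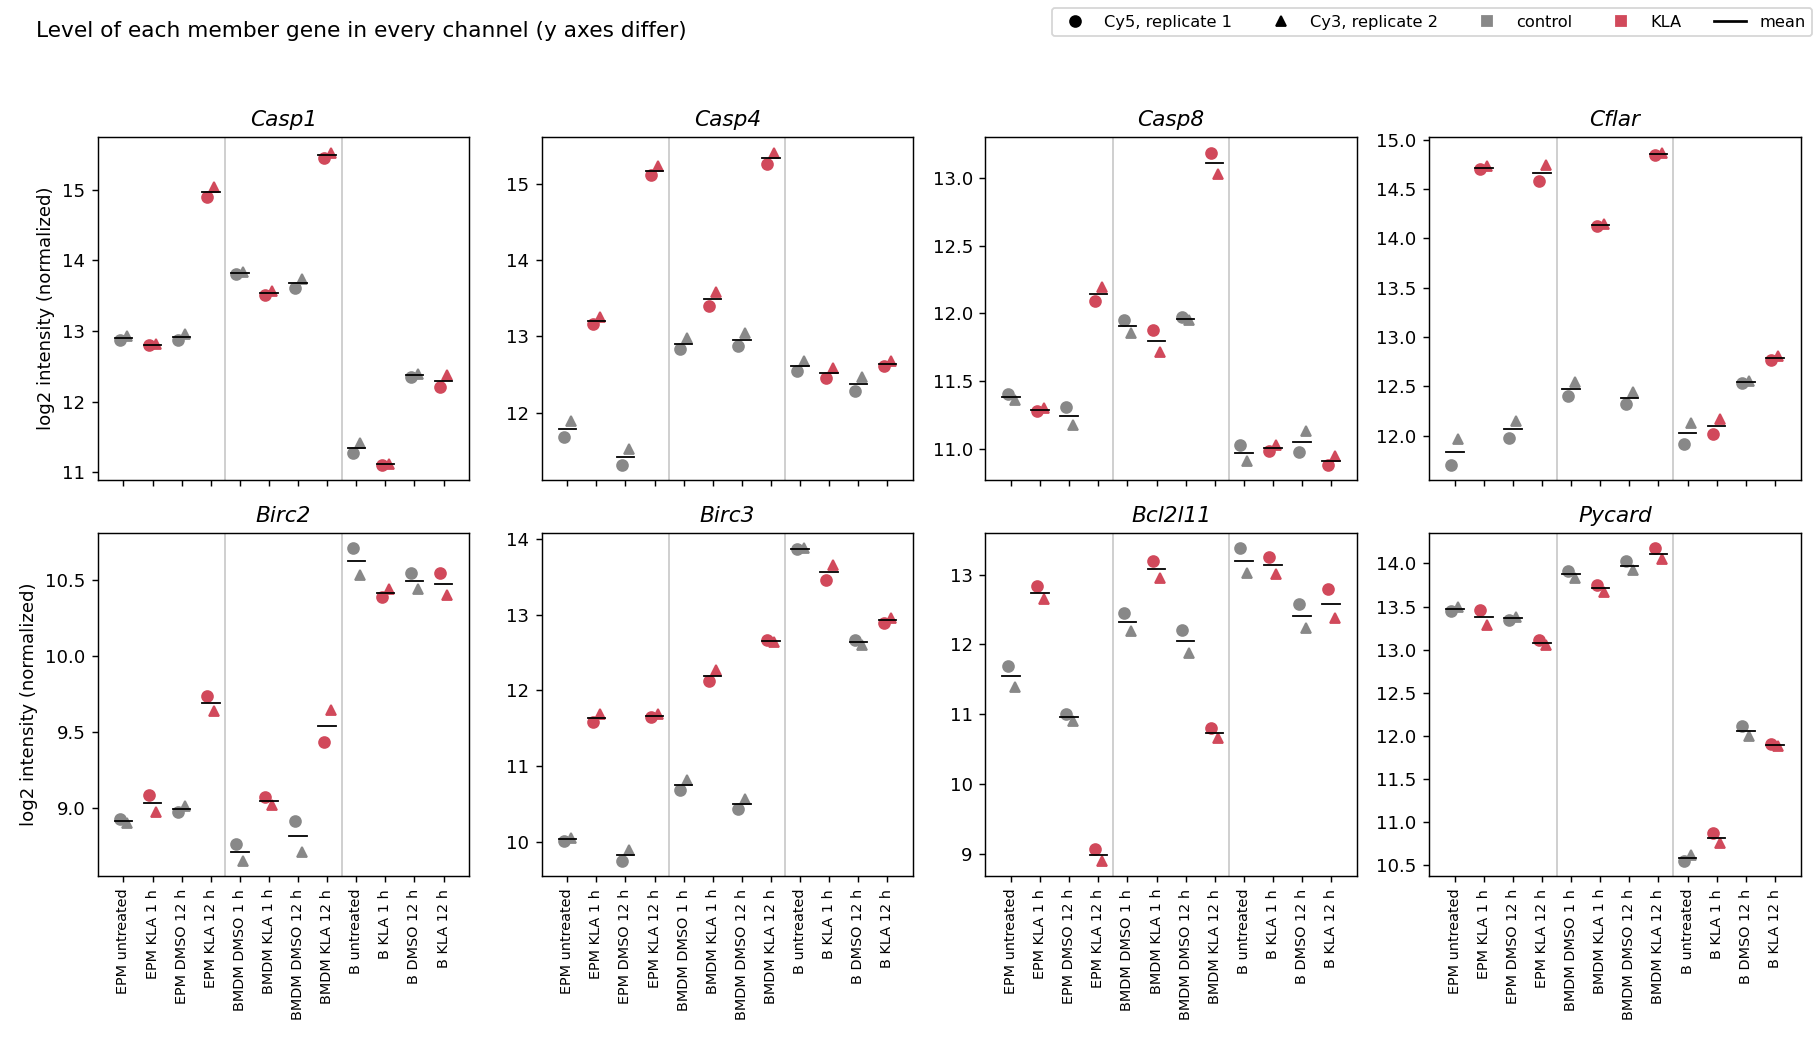
Normalized log2 intensity of each member gene (brightest probe) in all 24 channels, with circles for Cy5 (replicate 1), triangles for Cy3 (replicate 2) and lines for the mean of the 2. Grey marks controls and red marks KLA, and the y axes differ between genes. Birc3 lies at 12.61 to 13.88 in B cells and at 9.75 to 12.67 in macrophages, and Pycard at 10.55 to 12.11 in B cells and at 13.05 to 14.18 in macrophages.

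KLA left the members of B cells near their controls. At 1 h the changes ran from -0.31 (Birc3) to 0.23 (Pycard), and at 12 h from -0.16 (Pycard) to 0.29 (Birc3). Birc3 read 13.87 and 13.88 untreated and 13.46 and 13.66 after KLA for 1 h (adjusted p = 0.0206), and 12.66 and 12.61 with DMSO against 12.90 and 12.96 with KLA at 12 h (adjusted p = 0.0272). The channels did not overlap at either time, but the 1 h call was lost without the first replicate of KLA or without either untreated channel, and the 12 h call without any 1 of its 4 channels. Its second probe moved by -0.01 and 0.14 (adjusted p = 0.961 and 0.415), and the mean of both probes was not called at either time (adjusted p = 0.213 and 0.085). With the dye as a replicate block 3 members were called at each time, and the share of all genes called in that fit was not counted. The members called were Birc3 with Casp1 (-0.23, adjusted p = 0.00444) and Pycard (0.23, adjusted p = 0.0127) at 1 h, and Birc3 with Casp4 (0.27, adjusted p = 0.000785) and Cflar (0.24, adjusted p = 0.0108) at 12 h. Of the 6 Cflar probes, 4 were called higher at 12 h in the fit over all probes, by 0.25 to 0.60. With the mean of its 6 probes Cflar was called at 12 h (0.33, adjusted p = 4.54e-05, limma) and not at 1 h (-0.03, adjusted p = 0.766). In that fit Casp1, with 1 probe, was called at 1 h (-0.23, adjusted p = 0.0449).

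With the labels of the KLA 1 h and DMSO 12 h arrays exchanged, B cells would show a response. Then 5 members would be called at 1 h, beside 47.4% of all genes: Pycard at 1.47, Casp1 at 1.03 and Cflar at 0.52 higher, Birc3 at -1.24 and Bcl2l11 at -0.80 lower. At 12 h 5 would be called beside 49.1%: Casp1 at 1.18, Pycard at 1.08 and Cflar at 0.69 higher, Birc3 at -0.64 and Bcl2l11 at -0.55 lower. Casp4 and Casp8 were not called under either assignment. The 12 h responses of both macrophages differed from that of B cells in 7 members for EPM (all but Pycard, beside 45.1% of all genes, 16.9% higher and 28.2% lower) and in 8 for BMDM (beside 57.5%, 25.3% higher and 32.2% lower). The BMDM call of Pycard (0.30) was lost without the second DMSO or first KLA channel of BMDM or the first DMSO channel of B cells. Casp4 differed by 3.48 and 2.11, Cflar by 2.36 and 2.23, Casp1 by 2.12 and 1.89 and Bcl2l11 by -2.15 and -1.5. The Bcl2l11 differences depended on the probe, and with the mean of its probes they were -0.67 and -0.24 (adjusted p = 1.24e-05 and 0.0337, limma). By its middle probe the 12 h change was 0.24 in EPM and 1.10 in BMDM. That probe read 7.21 and 7.24 with DMSO and 7.26 and 7.47 with KLA in B cells at 12 h. With the labels exchanged all 8 members differed from B cells in both macrophages, beside 58.1% of all genes for EPM and 65.6% for BMDM. The differences for EPM and BMDM were then 0.86 and 0.63 for Casp1, -1.42 and -0.76 for Bcl2l11, 2.49 and 2.79 for Birc3 and 1.91 and 1.78 for Cflar. Pycard was then at -1.36 for EPM (adjusted p = 1.03e-09), and its sign for BMDM turned from 0.30 to -0.94. Casp4 (3.63 and 2.25), Casp8 (1.00 and 1.24) and Birc2 (0.64 and 0.66) lay near their values under the scanner labels.

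The early and 12 h controls of B cells differed in more members than those of macrophages. In B cells and EPM the early control was untreated and the 12 h control had DMSO. Time and solvent therefore cannot be told apart in this step, except in BMDM, where both controls had DMSO. Between untreated B cells and the 12 h DMSO control, 5 members differed, 3 higher and 2 lower at 12 h, beside 47.4% of all genes (25% higher and 22.4% lower). Pycard rose from 10.55 and 10.62 to 12.11 and 12.00 (log2 1.47, adjusted p = 8.06e-12), Casp1 from 11.27 and 11.41 to 12.35 and 12.40 (1.03, adjusted p = 7.06e-10), and Cflar by 0.52 (adjusted p = 0.000101). Birc3 fell from 13.87 and 13.88 to 12.66 and 12.61 (-1.24, adjusted p = 1.93e-10), and Bcl2l11 fell by 0.80 (adjusted p = 0.000561). With the labels exchanged 1 member was called, Birc3 at -0.31, beside 5.17% of all genes. Over the same step the macrophage markers summed to 2564 to 3042 in untreated B cells and to 6648 to 6695 at 12 h, the T cell markers to 1377 to 1716 and 2996 to 3398, and the erythroid markers to 996.5 to 1065 and 356.6 to 371.2, on the linear scale. With the labels exchanged the macrophage sum of the 12 h control was 3052 to 3241. Few genes carried these sums. Among the macrophage markers the mean log2 level was 7.52 and 10.88 for Emr1, 10.66 and 11.87 for Ctsd and 8.31 and 8.82 for Lyzs, against 7.82 and 7.39 for Cd68, 6.66 and 6.53 for Cd14 and 6.45 and 6.27 for Csf1r, and the other 4 of 10 were at background in both. Of the T cell markers Lck read 10.11 and 11.43 and Cd3e 7.05 and 7.12, while Thy1 and Cd8a were at background in both. Their part in the change was not tested.

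In macrophages the controls moved less between the early and the 12 h arrays. In EPM, Casp4 fell by 0.37 (adjusted p = 0.0128) and Bcl2l11 by 0.59 (adjusted p = 0.0173), 2 members beside 19.1% of all genes (10.8% higher and 8.31% lower). In BMDM Birc3 fell by 0.25 (adjusted p = 0.0241), 1 member beside 23.2% (13.2% higher and 9.99% lower). Without the first DMSO channel of EPM neither EPM call was left, Bcl2l11 was also lost without the second DMSO or the first untreated channel, and Casp4 without the second untreated channel. The BMDM call was lost with the BMDM arrays fitted alone (adjusted p = 0.0624), with the mean of both Birc3 probes (-0.04, adjusted p = 0.782), and without the second channel at 1 h or the first at 12 h. With the dye as a replicate block 4 and 3 members were called, adding Birc3 (-0.21, adjusted p = 0.00921) and Cflar (0.23, adjusted p = 0.00556) in EPM and Bcl2l11 (-0.28, adjusted p = 0.00182) and Casp1 (-0.14, adjusted p = 0.0348) in BMDM. The share of all genes called in that fit was not counted.

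The response at 12 h was larger than at 1 h, or turned, in 5 members in EPM (Casp1, Casp4, Casp8, Birc2 and Bcl2l11, beside 43.7% of all genes, 19.4% higher and 24.3% lower) and in all 8 in BMDM (beside 54.4%, 24.5% higher and 29.9% lower). The EPM control was untreated at 1 h and DMSO at 12 h, so time and solvent cannot be told apart in the EPM differences. In BMDM the call for Pycard (0.31) was lost without the first DMSO or second KLA channel at 1 h and without the second DMSO or first KLA channel at 12 h. The call for Birc2 (0.39) was lost without the second DMSO or second KLA channel at 12 h, without quantile normalization (0.13, adjusted p = 0.397) and in the authors' values (0.31, adjusted p = 0.0834). In EPM the changes of Cflar and Birc3 at 12 h were near those at 1 h, with differences of -0.28 and 0.25, called with the dye as a replicate block (adjusted p = 0.00774 and 0.017). In BMDM both grew, Cflar by 0.81 and Birc3 by 0.71 (adjusted p = 1.7e-05, limma). The second Birc3 probe, dimmer at 6.64 and 6.81 in the early and 12 h BMDM controls, did not (-0.23, adjusted p = 0.106). The mean of both Birc3 probes was not called (0.24, adjusted p = 0.0547).

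The other genes of these pathways were read from 6 lists with 61 genes, 57 of which were on the array and tested. In EPM, 12 were higher and 15 lower at 1 h and 28 higher and 11 lower at 12 h. In BMDM, 19 were higher and 13 lower at 1 h and 30 higher and 16 lower at 12 h. Of all genes tested, 19.6% were higher and 34.3% lower in EPM at 12 h, and 28.6% and 36.3% in BMDM. At 1 h, 9.39% of all genes were higher and 19.7% lower in EPM, and 11% and 17.6% in BMDM. In B cells 1 listed gene was higher at 1 h, Bbc3 (0.35), and 9 were higher and 1 lower at 12 h, the lower one being Casp6 (-0.27). Of all genes, 2.72% were higher in B cells at 1 h, and 2.81% were higher and 2.48% lower at 12 h. Genes named below are among the 2 highest and the 2 lowest changes of their list in EPM at 12 h. Fas, Tnfaip3, Bcl2a1b, Pmaip1, Il18, Gsdmdc1, Nlrp3 and the Xiap probe were added for their known roles after their values were seen.

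Among the other caspases, none of 7 was higher at 1 h in either macrophage, and 4 were lower in EPM and 3 in BMDM. At 12 h in EPM 4 of 7 were higher, and Casp6 (-0.85) and Casp9 (-0.49) were lower. Of 9 other IAP genes and their antagonists, 4 were higher and 1 lower in EPM at 12 h, and 6 were higher and 2 lower in BMDM. Birc6 rose by 1.63 and 1.34, the Xiap probe (Birc4 on the array) by 0.49 and 0.74, Birc1b by 0.67 and 0.86, and Birc5, the mitotic member of the family, fell by 0.35 in EPM and by 2.74 in BMDM. Birc1f read -0.09 (not called) and rose by 0.68 in BMDM.

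In the BCL-2 family, 4 of 16 genes were higher and 4 lower at 1 h in EPM, and 7 higher and 2 lower in BMDM. Bcl2a1b and Bcl2a1c, survival genes with near-identical copies whose probes may not tell them apart, rose by 1.25 and 1.38 in EPM at 1 h and by 2.16 and 2.42 in BMDM at 12 h. Bmf, a BH3-only gene like Bcl2l11, was lower in all 4 macrophage comparisons, by -1.57 and -1.78 in EPM and -1.42 and -2.24 in BMDM. Pmaip1, another BH3-only gene, was raised at 1 h by 0.99 and 0.95, and at 12 h it was 0.03 in EPM (not called) and -0.93 in BMDM. Bbc3 fell by 0.59 in EPM at 1 h and rose by 1.10 in BMDM, and at 12 h it fell in both, by 0.88 and by 0.96. Bid, which Casp8 cleaves, fell at 1 h by 0.68 and by 0.46 and rose at 12 h by 1.31 and 0.25.

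Of 12 death receptor and necrosome genes, 8 were higher and 1 lower at 12 h in EPM, and 7 were higher and 3 lower in BMDM. Traf1, a partner of Birc2 and Birc3, rose by 2.94 and 5.12 in EPM and by 3.35 and 4.12 in BMDM. Tnfaip3, the deubiquitinase A20, changed most at 1 h, by 4.28 and 4.40. Mlkl, the effector of necroptosis, rose at 12 h by 3.45 and 2.78, with 0.07 and 0.11 at 1 h (not called), and Fas rose at both times, by 2.30 in EPM at 12 h. Ripk3 fell by 0.21 in EPM and by 0.25 in BMDM at 12 h, and Tradd was not called in any comparison.

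Of 9 inflammasome genes, 6 were higher at 12 h in each macrophage, and 1 was lower in EPM and 2 in BMDM. Il1b, a Casp1 substrate, rose by 7.71 in EPM and 5.83 in BMDM at 1 h. It was not well above background with DMSO for 12 h in EPM, which makes it at least 125-fold higher with KLA there. Il18, the other substrate, rose by 2.62 and 3.19 at 12 h, and Gsdmdc1, the gene of gasdermin D, by 1.71 and 1.44. Mefv rose by 2.74 and 3.55 in EPM, Nlrp3 by 1.22 and 0.52, and Txnip fell by 2.54 at 1 h and fell by 0.55 at 12 h. P2rx7 read -0.15 in EPM at 12 h (not called) and fell by 0.85 in BMDM. Among apoptosome genes Cycs rose at 12 h by 1.11 and 0.93, and Apaf1 rose at 1 h by 0.69 and 0.36, while Endog fell by 0.57 and by 0.82 and Aifm1 fell by 0.43 and by 0.88 at 12 h.

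**Figure D4:**
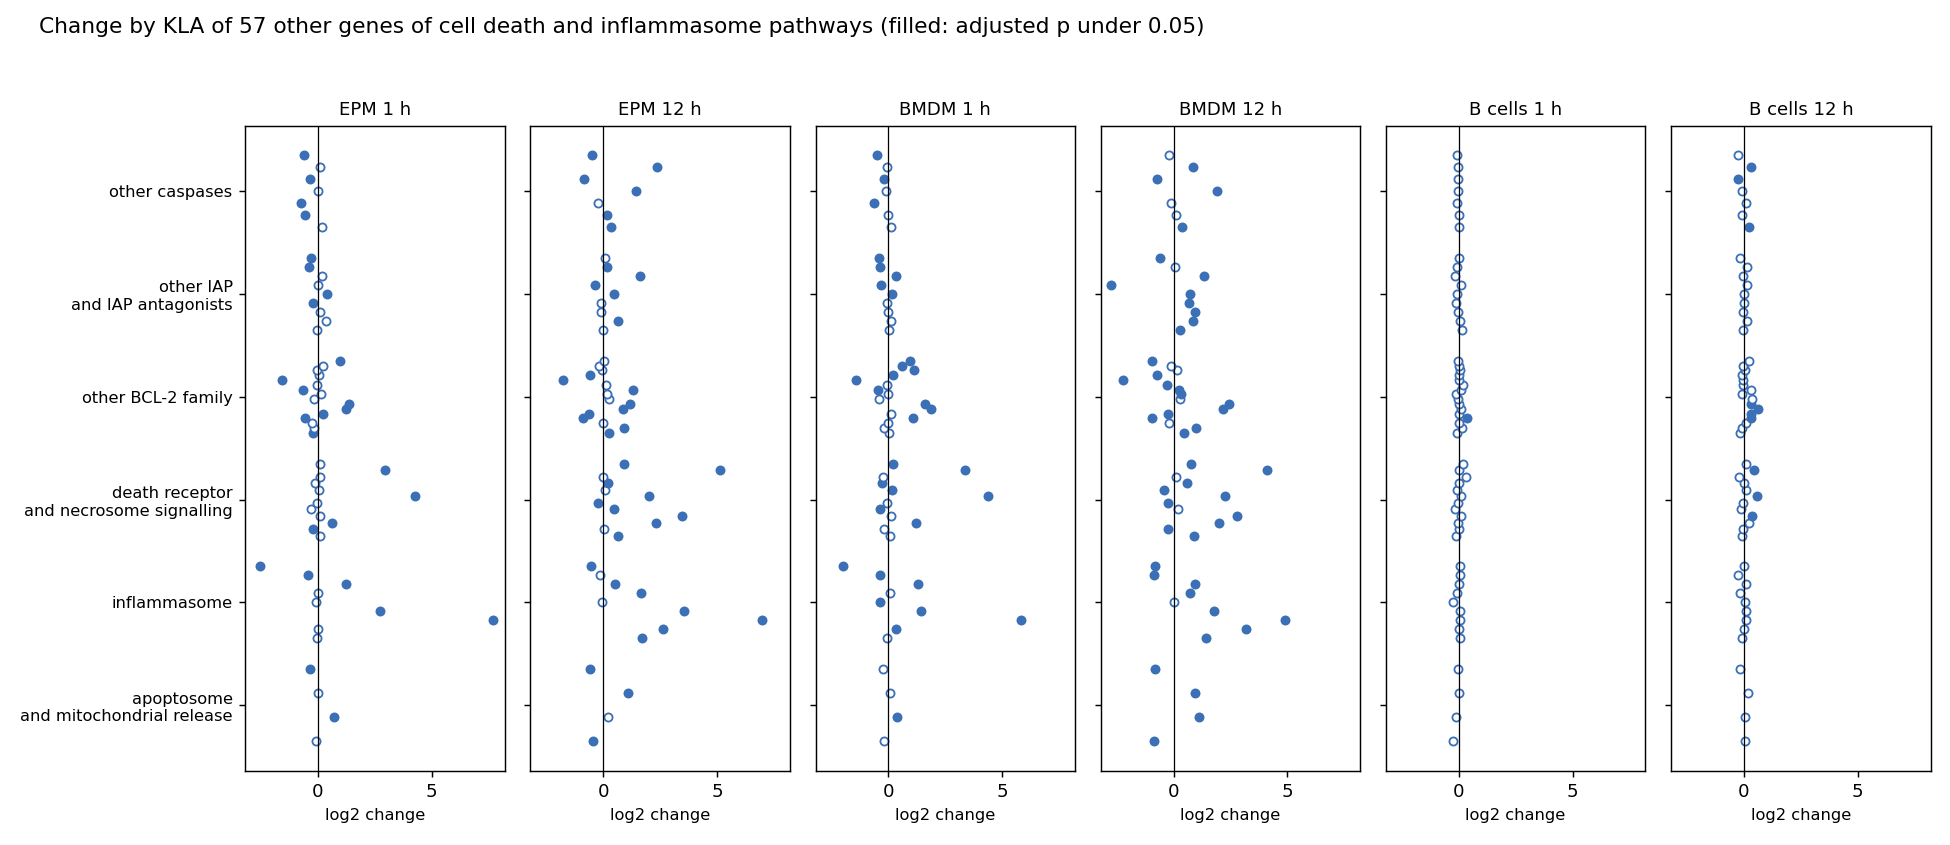
Change by KLA (x axis, log2) of 57 other genes of cell death and inflammasome pathways, by list (y axis) and comparison. Each point is 1 gene and filled points passed an adjusted p of 0.05. The point farthest right is Il1b, at 7.71 in EPM at 1 h, and the B cell panels, drawn under the scanner labels, stay within 0.63 of 0.

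For each member the 3 genes whose means over the 12 conditions were most like it, by Pearson correlation, were taken from all genes tested. They were Ccdc50 (0.99), Tbc1d13 and Rabl5 (both 0.98) for Casp1, and A630077B13Rik (0.97), H2-Q8 (0.97) and Gvin1 (0.96) for Casp4. For Casp8 they were P2ry13 (0.99), Dnalc1 and Klra2 (both 0.98), and for Cflar Mnda, Gbp5 and Csf3 (all 0.94). Birc2 was closest to Ptpn2, Wdr59 and Prpf38b (all 0.99), and Birc3 to Nfkb1 (0.99), AI929863 (0.98) and Taf7 (0.97). For Bcl2l11, 3110068G20Rik and Ddx3x (both 0.90) were among the 3, and for Pycard they were Exoc6b, Cd48 and Acadsb (all 0.99). Among the members, Casp1 and Casp8 had the highest correlation (0.93), and Birc2 and Pycard the lowest (-0.88). The neighbours Birc2 and Birc3 had 0.85, Casp1 and Casp4 0.75 and Cflar and Casp8 0.61. The 12 points share slides and cell types, so these values mix cell type and treatment.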

How the data were processed

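RNA of 12 conditions was hybridized to 12 Agilent 2-colour arrays, with 1 biological replicate in each channel. The deposited scanner files hold spot intensities on a linear scale that the authors took with Agilent Feature Extraction 9.5.3.1 (version per the file headers), with probe positions on mm8. The authors' table holds normalized linear intensities of 38516 probes and served as an alternative.

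Mean and background signals of 43379 spots that are no controls were corrected with limma's normexp (offset 50), normalized by loess within arrays and by Aquantile between arrays, and read as log2 levels per channel (R 4.3.3, limma 3.58.1, statmod 1.5.0). Outlier spots were left out, spots of a probe averaged, and a gene was read from its brightest probe if both channels of a condition were well above background, which left 17347 genes. A linear model with 1 coefficient per condition (12 residual degrees of freedom) was tested with limma's moderated statistic and Benjamini-Hochberg adjustment over all genes of a comparison, at 0.05. The number of arrays limits the precision. Replicates were numbered by dye, which pairs channels across arrays: over 66 pairs of arrays the deviations from the condition means correlated by 0.27 to 0.63.

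The members, the pathway lists and the named genes (all members, the 2 highest and 2 lowest of each list in EPM at 12 h, and the 3 genes most like each member) were chosen with earlier results of these data known. Some genes that this rule names are not reported here. Alternatives were an offset of 16, the scanner's processed signal, no quantile step, median centring, no filter, the mean of all probes and each probe, the authors' values, the dye as a block, array means as samples with pooled controls, each cell type alone, exchanged B cell labels and leaving out each channel. The script was tested on simulated data. Promoter windows came from RefSeq (GRCm38.p6). All 8 members were matched by symbol.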

Additional observations from a re-analysis of the deposited data

Results flagged for a closer look

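The response to KLA differed by the test of the difference itself in the members given here, as log2 differences of the changes. Between EPM and BMDM these were Casp4 (0.82) and Cflar (1.22) at 1 h, and Casp4 (1.37), Bcl2l11 (-0.66), Birc3 (-0.3) and Pycard (-0.42) at 12 h. Between EPM and B cells at 12 h they were Casp4 (3.48), Cflar (2.36), Casp1 (2.12), Birc3 (1.56), Casp8 (1.04), Birc2 (0.72) and Bcl2l11 (-2.15). Between BMDM and B cells at 12 h they were Cflar (2.23), Casp4 (2.11), Casp1 (1.89), Birc3 (1.86), Casp8 (1.29), Birc2 (0.75), Pycard (0.3) and Bcl2l11 (-1.5). With the B cell labels exchanged, Casp1 was at 0.86 and 0.63, Birc3 at 2.49 and 2.79, Bcl2l11 at -1.42 and -0.76 and Pycard at -1.36 and -0.94 for EPM and BMDM. With the mean of its probes under the scanner labels, Bcl2l11 was at -0.67 and -0.24.

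Between 12 h and 1 h, the response of EPM differed for Casp4 (2.34), Casp1 (2.14), Casp8 (1.00), Birc2 (0.58) and Bcl2l11 (-3.18). That of BMDM differed for Casp1 (2.1), Casp4 (1.78), Casp8 (1.25), Cflar (0.81), Birc3 (0.71), Birc2 (0.39), Pycard (0.31) and Bcl2l11 (-2.07). Every comparison between cell types lies between slides, and at 1 h the control was untreated cells in EPM and DMSO in BMDM. The differences of EPM between 12 h and 1 h thus also compare unlike controls.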

How the results depend on the processing

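Each condition was 1 array. Of the alternatives below, the share of all genes called was counted only with exchanged B cell labels. With array means as samples and the early and 12 h controls of a cell type pooled as 1 control (2 choices changed together), the calls fell to 2 members in EPM and 0 in BMDM at 1 h, 0 in B cells at either time, 2 between EPM and BMDM and 5 between B cells and BMDM in the controls. The differences of responses then fell to 0 between EPM and BMDM at either time, 2 between EPM and B cells, 4 between BMDM and B cells, and 3 between 12 h and 1 h in each macrophage. Against the pooled control, whose arrays lay at 13.88 and 12.63, Birc3 in B cells turned to 0.31 at 1 h and -0.33 at 12 h, and the Pycard difference of BMDM and B cells to -0.38.

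With B cell labels exchanged, 5 members were called at each time (beside 47.4% of all genes at 1 h and 49.1% at 12 h) and 1 between controls (beside 5.17%). Casp1 turned to 1.03 at 1 h and 1.18 at 12 h and to -0.23 between controls, Bcl2l11 to -0.55, Birc3 to -0.64 and Pycard to 1.08 at 12 h, and Pycard between BMDM and B cells to -0.94. The authors' values gave 5, 5 and 0, with Casp1 at 0.99, 1.14 and -0.25, Bcl2l11 at -0.50, Birc3 at -0.60, Pycard at 1.06 and the difference at -0.55. The authors' table holds these B cell columns exchanged against the scanner files, so for B cells it repeats the exchange and is no separate alternative.

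The dye as a replicate block called 3 members in B cells at each time, 4 and 3 between the controls of EPM and BMDM, and changed no other call than those given with the results and that of Casp4 between the B cell controls (-0.24, adjusted p = 0.000259). In B cells, the offset of 16 left 0 calls at 12 h, the processed signal 0 and no quantile step 3 at 1 h, and the fit of B cells alone 0 at each time. The fit of BMDM alone left 0 between its controls. Without the quantile step Pycard in EPM at 12 h turned to 0.032 and Birc2 between EPM and BMDM to 0.41. By other probes Bcl2l11 at 12 h turned to 0.24 in EPM and 1.10 in BMDM (middle probe), and Cflar between B cells and EPM to -0.26 (probe at chr1:58677110-58677169 only). The upstream Bcl2l11 probe was at 0.10 in EPM at 12 h (not called), where its control was not well above background and it could not show a fall.

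Leaving out 1 channel gave 4 to 4 calls at 1 h and 8 to 8 at 12 h in EPM, 5 to 6 and 7 to 8 in BMDM and 0 to 1 and 0 to 0 in B cells. Early controls gave 7 to 8 between each pair of cell types, 12 h controls of EPM and BMDM 6 to 8, and 12 h against early controls 0 to 2 in EPM, 0 to 1 in BMDM and 5 to 6 in B cells. Differences of responses gave 2 to 2 and 2 to 5 between EPM and BMDM, 7 to 7 and 7 to 8 against B cells, and 5 to 6 and 6 to 8 between times.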
